A study of Homo sapiens with 6 samples.

Results

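The genes described here encode the pyruvate dehydrogenase complex and the enzymes that switch it off and on. They were taken by symbol from a table of 30676 genes, and each of the 10 had 1 row: the kinases PDK1, PDK2, PDK3 and PDK4, the phosphatases PDP1 and PDP2, and the subunits PDHA1, PDHB, DLAT and PDHX. RNA was sequenced from wild-type cells labelled HCT116, an established human colorectal carcinoma line, all held at 1% oxygen for 24 hours. The 3 control libraries had DMSO at 0.1%. The other 3 had GIA, a preparation of genistein isoflavonoid alkaloids, at 10 µM, and a DMSO content is not given for them. There was no group at normal oxygen, so the response to hypoxia was not measured. Separate cultures are not named in the labels. A p-value here therefore sets a difference only against the spread of these samples, which may be technical.

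The complex sits in the mitochondrial matrix and converts pyruvate to acetyl-CoA, the step that joins glycolysis to the citric acid cycle. Its E1 enzyme is built from alpha (PDHA1) and beta (PDHB) subunits, DLAT is the E2 core that carries the lipoyl arms, PDHX anchors the E3 enzyme to that core, and DLD is E3. The PDK kinases phosphorylate serines of PDHA1 and stop the enzyme, and the PDP phosphatases remove the phosphate and restart it. PDK1 is a textbook target of the hypoxia-inducible factor (HIF), and its induction under low oxygen is known to divert pyruvate from mitochondria towards lactate.

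The markers of the labelled cell type were partly absent. Of 9 colorectal epithelial markers, 7 had a row, with none for CDX1 and CDX2. The summed level of the 7 was carried by the keratins KRT8, KRT18 and KRT19. The epithelial adhesion molecules EPCAM and CDH1 were at most 0.335 and 0.0490 FPKM, a fragment count divided by gene length and library size, in any library, VIL1 at most 0.0122 and KRT20 at most 0.0437. Of 8 fibroblast markers, 6 had a row, and the matrix proteoglycan LUM stood at 157 to 197 FPKM and DCN at 11.2 to 16.0, while COL3A1 was listed at 0 in each library except GIA library 2, where it had 0.00766. Of 5 leukocyte markers 3 had a row: PTPRC was at most 0.0162 FPKM and CD14 at most 0.174, while the macrophage and lysosome marker CD68 stood at 16.97 to 24.6. The endothelial marker PECAM1 was at most 0.123 FPKM. The cells are called by their label below, which these markers bear out only in part. Whether the cells are HCT116 was not tested further. Library totals were 55725249 to 67835059 estimated counts, larger in each GIA library than in each DMSO library.

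HIF binds a short core, ACGTG or GCGTG, and both were searched on both strands in the 250 bases before each RefSeq start (GRCh38.p14). Windows were found for 9 of the 10 genes, with none for PDP1. Where a gene had several, the one nearest most coding transcripts of GENCODE was used. Among 35116 such windows 18.5% held ACGTG and 32.2% held GCGTG. The 5 genes below are shown because the results below turn on them: PDK1 as the HIF target among the kinases, PDK3 and PDK4 as the kinases that varied most between libraries, and the E1 pair PDHA1 and PDHB, whose ratio is described below. Capitals mark matches to either core, lower case the rest, and bases inside annotated exons are left out except for sites of 30 bases. For PDK1 (chr2:172556060-172556089, plus strand) and PDK3 (chrX:24465213-24465242, plus strand) the site nearest the start is given. For PDK4 (chr7:95596517-95596766, minus strand), PDHA1 (chrX:19343677-19343892, plus strand) and PDHB (chr3:58433858-58434082, minus strand) the stretch outside exons is given.
PDK1: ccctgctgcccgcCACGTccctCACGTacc
PDK3: cgcgcgccgcgtACGTGcagcaaccgactc
PDK4: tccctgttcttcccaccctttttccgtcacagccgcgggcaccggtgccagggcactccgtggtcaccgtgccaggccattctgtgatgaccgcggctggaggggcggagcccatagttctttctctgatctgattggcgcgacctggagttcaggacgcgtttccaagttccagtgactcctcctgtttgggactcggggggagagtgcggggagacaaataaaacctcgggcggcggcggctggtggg
PDHA1: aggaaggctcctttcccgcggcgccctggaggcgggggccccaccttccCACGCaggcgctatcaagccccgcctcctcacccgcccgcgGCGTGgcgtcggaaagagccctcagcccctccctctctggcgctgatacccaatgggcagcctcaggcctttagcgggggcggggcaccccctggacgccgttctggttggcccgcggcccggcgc
PDHB: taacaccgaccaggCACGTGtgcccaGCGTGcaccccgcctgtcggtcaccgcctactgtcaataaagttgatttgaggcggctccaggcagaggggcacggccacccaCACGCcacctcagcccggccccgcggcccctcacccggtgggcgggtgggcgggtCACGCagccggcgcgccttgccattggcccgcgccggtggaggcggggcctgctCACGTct

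PDK1 held 2 ACGTG matches, both on the minus strand, 17 and 8 bases before its start. Of all windows 7.52% held at least 2, where the strands of a single CACGTG count as 2 matches. The share with 2 separate places was not computed. PDK3 held 1 ACGTG match 61 bases before its start and 1 GCGTG match 102 bases before it. PDK4 held neither core in its 250 bases. PDHA1 held GCGTG at 3 places, 1 of them in the exonic bases left out, and no ACGTG, and PDHB held ACGTG at 3 positions, of which 2 are the strands of a single CACGTG, and GCGTG at 3. PDK2 has 3 RefSeq starts with equal support, and only the window of the middle start held a core, ACGTG on both strands of a CACGTG and GCGTG once. Of the genes whose bases are not shown, PDP2 held ACGTG at 3 positions, of which 2 are the strands of a single CACGTG. DLAT held 1 ACGTG and 2 GCGTG matches, and PDHX held 1 of each. ACGTG was thus not confined to the genes shown. A match describes the letters of the window and is not a binding site.

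The subunits of the complex were far more abundant than its kinases and phosphatases. PDHA1 averaged 39.7 ± 0.621 FPKM in the DMSO libraries and 37.6 ± 0.696 in the GIA libraries (SD, n = 3 each, as for the other means here). DLAT had 25.1 ± 0.50 and 25.1 ± 0.528, PDHB 16.3 ± 0.382 and 17.2 ± 0.555, and PDHX 12.99 ± 0.373 and 12.8 ± 0.291. These 4 did not overlap one another in any library. PDP1 came next, with 5.24 ± 0.404 and 4.78 ± 0.347 FPKM, and its range over the 6 libraries overlapped that of PDK2 (4.75 ± 0.201 and 4.98 ± 0.252), which overlapped that of PDK4 (3.68 ± 0.134 and 3.85 ± 0.693). PDP2 (2.95 ± 0.20 and 2.94 ± 0.178) lay below PDK4, PDK1 (1.72 ± 0.105 and 1.70 ± 0.121) below PDP2, and PDK3 (0.945 ± 0.0802 and 1.06 ± 0.144) lowest, each without overlap.

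**Figure D1:**
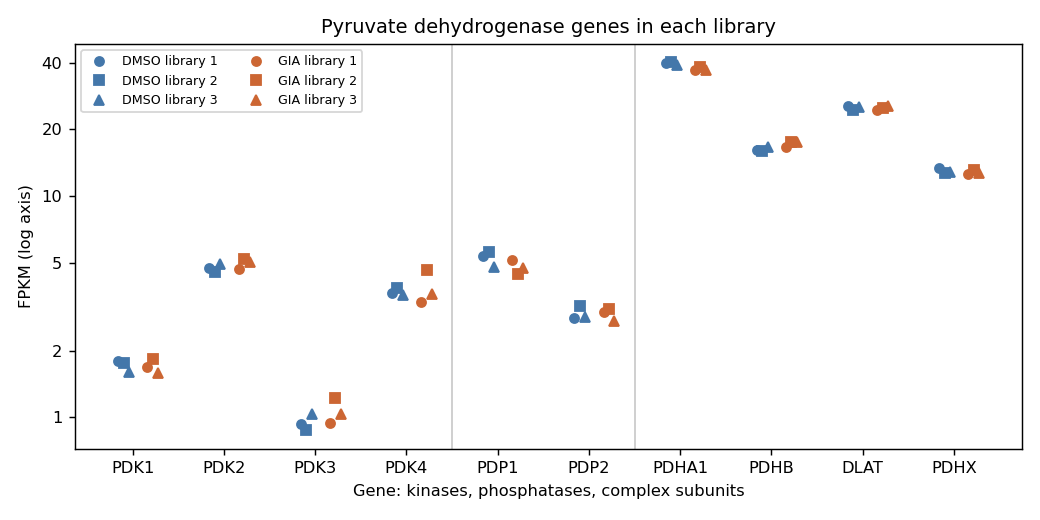
FPKM of each gene (log axis) in the 6 libraries, DMSO in blue and GIA in orange, with library 1 as circles, 2 as squares and 3 as triangles. The 4 subunits lie between 12.6 and 40.2 FPKM, the kinases and phosphatases between 0.873 and 5.57.

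No gene of the complex or of its control passed the test between GIA and DMSO. With edgeR's quasi-likelihood test, adjusted over 13721 genes, 0 of the 10 were higher and 0 lower. The background was the same: 0 of 13721 genes passed (0%), and 4.59% were under 0.05 before adjustment. DESeq2 also called 0 of the 13721, with 651 under 0.05 before adjustment, against 630 with edgeR. Of the 10 genes, 4 had a positive and 6 a negative log2 fold change (GIA over DMSO), with a median of -0.0070, beside 0.00038 for all tested genes. The members' median was -0.04 without GIA library 2 and turned positive without GIA library 3 (0.03), DMSO library 2 (0.02) or DMSO library 1 (0.01). All 10 passed the filter on low values, a mean of at least 0.5 FPKM.

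The intervals bounded the change of each gene to well under 2-fold. The 95% interval, which is not adjusted for the number of genes, reached at most 1.06-fold in either direction for DLAT, 1.09-fold for PDHX, 1.11-fold for PDHA1 and 1.12-fold for PDHB. For the regulators it reached 1.13-fold for PDP2, 1.14-fold for PDK1, 1.154-fold for PDK2, 1.24-fold for PDP1, 1.26-fold for PDK4 and 1.34-fold for PDK3. The median of this bound over all tested genes was 1.18-fold. If libraries of a group are technical, these intervals leave out the spread between cultures.

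**Figure D2:**
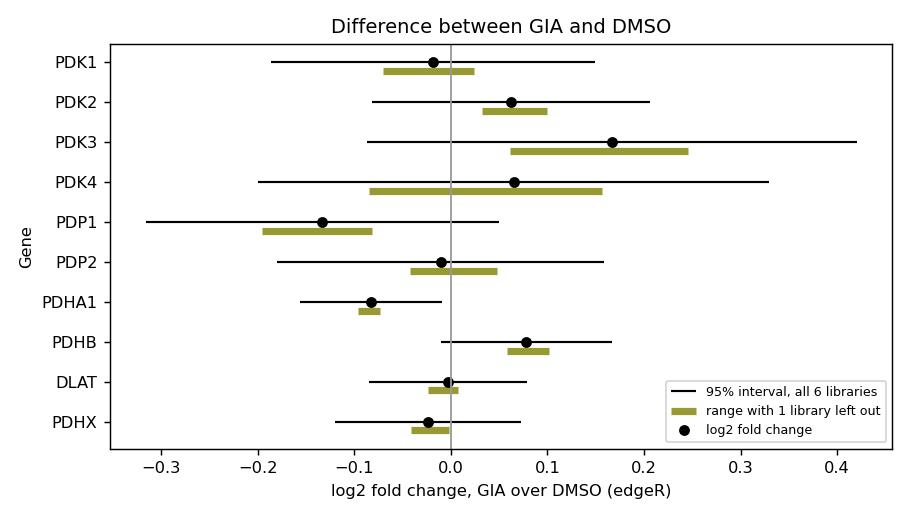
Log2 fold change of each gene, GIA over DMSO (points), with its 95% interval (black lines) and the range of the fold change when each library in turn is left out (olive bars). The interval of PDHA1 alone lies on 1 side of 0, at -0.16 to -0.0088, before adjustment, and the widest are those of PDK4, -0.20 to 0.33, and PDK3, -0.09 to 0.42.

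PDK1 (chromosome 2, 172555373 to 172599137, ENSG00000152256), the HIF-responsive kinase, had 1.80, 1.76 and 1.603 FPKM in DMSO libraries 1 to 3 and 1.68, 1.83 and 1.59 in GIA libraries 1 to 3. The groups overlapped fully, with the highest and the lowest value both under GIA. The fold change of PDK1 on the log2 scale was -0.02 (SE 0.07, 95% interval -0.19 to 0.15, edgeR adjusted p = 0.974). The sign turned without DMSO library 1 (0.01) and without GIA library 3 (0.02), and the lowest value, -0.07, came without GIA library 2 and without DMSO library 3.

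PDK2 (chromosome 17, 50094737 to 50112152), the most broadly expressed isozyme, had 4.75, 4.55 and 4.95 FPKM with DMSO and 4.69, 5.18 and 5.05 with GIA. GIA libraries 2 and 3 lay above each DMSO library, and GIA library 1 lay among them. The log2 fold change was 0.06 (SE 0.06, interval -0.08 to 0.21, edgeR adjusted p = 0.888), and leaving out 1 library gave 0.03 (DMSO 2) to 0.10 (GIA 1).

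PDK3 (chromosome X, 24465270 to 24541862), another isozyme reported to respond to HIF, had 0.930, 0.873 and 1.03 FPKM with DMSO and 0.941, 1.222 and 1.03 with GIA. Only GIA library 2 lay clearly above the DMSO libraries. Its log2 fold change of 0.17 (SE 0.11, interval -0.09 to 0.42, edgeR adjusted p = 0.875) was 0.06 without that library and 0.11 without DMSO library 2.

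PDK4 (chromosome 7, 95583499 to 95596516), the isozyme known for its rise on starvation and fatty acid use, had 3.64, 3.83 and 3.56 FPKM with DMSO and 3.33, 4.64 and 3.597 with GIA. GIA held both the lowest and the highest library, and the SD over the GIA libraries was 0.693 FPKM, against 0.134 over the DMSO libraries. The log2 fold change was 0.06 (SE 0.12, interval -0.20 to 0.33, edgeR adjusted p = 0.933). It turned to -0.08 when GIA library 2 was left out. Leaving out GIA library 1 gave 0.16, GIA library 3 0.11, DMSO library 2 0.10 and DMSO library 3 0.04.

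PDP1 (chromosome 8, 93857807 to 93926066), the phosphatase stimulated by calcium, had 5.36, 5.57 and 4.79 FPKM with DMSO and 5.15, 4.46 and 4.74 with GIA. GIA libraries 2 and 3 lay below each DMSO library, and GIA library 1 did not. The log2 fold change was -0.13 (SE 0.08, interval -0.32 to 0.05, edgeR adjusted p = 0.875). Leaving out GIA library 2 gave -0.08 and DMSO library 2 -0.09, and the far end of the range was -0.20, without DMSO library 3.

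PDP2 (chromosome 16, 66878589 to 66893000), its paralogue, had 2.82, 3.18 and 2.85 FPKM with DMSO and 3.00, 3.07 and 2.73 with GIA. The groups overlapped, with the highest value under DMSO and the lowest under GIA. PDP2 had a fold change of -0.01 on the log2 scale (SE 0.07, with an interval of -0.18 to 0.16, edgeR adjusted p = 0.987). It turned to 0.05 without DMSO library 2 and to 0.03 without GIA library 3, and was -0.03 to -0.04 without any other single library.

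PDHA1 (chromosome X, 19343893 to 19361705), the E1 alpha subunit that the kinases phosphorylate, had 39.96, 40.2 and 39.01 FPKM with DMSO and 37.3, 38.4 and 37.1 with GIA. Each GIA library lay below each DMSO library, the only one of the 10 genes for which the groups did not overlap. Among the 13721 tested genes 5.60% had groups apart in this direction, 5.63% in the other and 11.2% in either, so 1 of 10 is near the background. The log2 fold change was -0.08 (SE 0.03, interval -0.16 to -0.0088, unadjusted p = 0.0321, edgeR adjusted p = 0.875), and between -0.10 and -0.07 with any single library left out.

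PDHB (chromosome 3, 58427630 to 58433857), the E1 beta subunit, had 16.2, 15.9 and 16.7 FPKM with DMSO and 16.6, 17.5 and 17.6 with GIA. GIA library 1 lay just under DMSO library 3, and the other GIA libraries lay above each DMSO library. The log2 fold change was 0.08 (SE 0.04, interval -0.01 to 0.17, unadjusted p = 0.0778, edgeR adjusted p = 0.875), with 0.06 to 0.10 when single libraries were left out.

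DLAT (chromosome 11, 112025408 to 112064404), the E2 core, had 25.5, 24.5 and 25.2 FPKM with DMSO and 24.6, 24.9 and 25.6 with GIA. The largest value exceeded the smallest by a factor of 1.05, the narrowest spread among the 10 genes. Its log2 fold change was -0.0034 (SE 0.04, edgeR adjusted p = 0.991), and its sign turned with small changes of setting. PDHX (chromosome 11, 34915829 to 35020591), the E3 binding protein, had 13.4, 12.7 and 12.9 FPKM with DMSO and 12.6, 13.1 and 12.7 with GIA. The log2 fold change of PDHX was -0.02 (SE 0.04, edgeR adjusted p = 0.932), and leaving out 1 library gave -0.0016 (DMSO 1), -0.01 (GIA 1) and -0.04 (DMSO 2, and also GIA 2). Of PDHX, 551 bases are shared with APIP on the other strand, which had at most 1.56 FPKM. In all, 8 of the 10 genes overlap other gene models, 12 models with 0 on the same strand. The libraries are strand-specific per the labels, and the sources used here do not give the strand setting of the counting.

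The balance between the E1 subunits was examined after their values were seen, so it is a description without a test. PDHA1 FPKM over PDHB FPKM was 2.46, 2.52 and 2.34 in DMSO libraries 1 to 3 and 2.25, 2.197 and 2.11 in GIA libraries 1 to 3. Each GIA library lay below each DMSO library. The share of other gene pairs whose ratios part the groups was not computed, so this separation has no background here. The means were 2.44 ± 0.0941 and 2.18 ± 0.0719, a difference of -0.26, and between -0.31 and -0.22 with any single library left out. E1 is a tetramer with equal numbers of both subunits, and the mRNA ratio does not measure the proteins. DLAT over PDHX, the E2 core against its binding protein, was 1.93 ± 0.0272 with DMSO and 1.96 ± 0.0595 with GIA, and the groups overlapped.

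PDK2 and PDK4 supplied most of the kinase mRNA per length. PDK2 made up 42.8 ± 1.54% of the summed kinase FPKM with DMSO and 43.1 ± 2.47% with GIA, PDK4 33.2 ± 1.44% and 33.1 ± 2.60%, PDK1 15.5 ± 0.993% and 14.7 ± 0.944%, and PDK3 8.51 ± 0.672% and 9.16 ± 0.327%. The order of the isozymes was the same in each of the 6 libraries. The share of PDK1 differed between the groups by -0.80 percentage points, less than the SD between libraries. That difference was -1.37 without DMSO library 3 and -1.34 without GIA library 1, and lay between -0.57 and -0.46 without any other single library.

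The place of PDK1 in this order rests on the gene length used. One FPKM of PDK1 was worth 905 estimated counts in DMSO library 1, against 334 for PDK2, 277 for PDK4 and 826 for PDK3. Scaled by 501 genes with a single transcript, of which 88.2% fell within 10% of their median, this corresponds to a gene model of about 14.9 kb for PDK1, where GENCODE transcripts run from 0.558 to 14.2 kb, and of 5.49 kb for PDK2. The implied model was longer than the longest GENCODE transcript for each of the 10 genes except DLAT, so the FPKM of the others carry this limit too. The excess was largest for PDK3 (13.6 against 4.95 kb), and PDK2 (5.49 against 3.44 kb) and PDHX (3.72 against 2.39 kb) are further cases. So are PDHA1 (4.51 against 3.48 kb), PDP1 (5.61 against 4.36 kb) and PDK4 (4.56 against 3.58 kb). By estimated counts, without division by length, PDK1 held 31.5 ± 1.87% of the kinase total with DMSO and 29.97 ± 1.58% with GIA, beside 32.1 ± 1.249% and 32.4 ± 1.77% for PDK2 and 20.6 ± 0.939% and 20.7 ± 1.76% for PDK4. Where the cells use mainly short PDK1 transcripts, the FPKM understates PDK1, and which transcripts were present was not measured here.

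**Figure D3:**
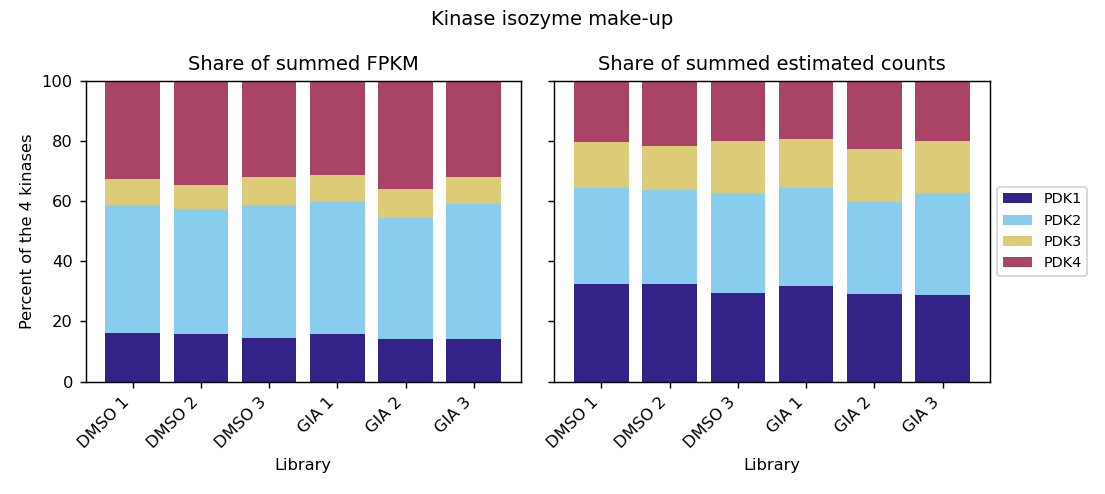
Share of each kinase isozyme in the 6 libraries, of the summed FPKM (left) and of the summed estimated counts (right), in percent. PDK1 holds 14.1 to 16.2% on the left and 28.96 to 32.6% on the right, and neither panel separates GIA from DMSO.

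All 4 kinases were highest in GIA library 2. In log2 CPM (TMM-scaled counts relative to library size) relative to the mean of 6 libraries, PDK4 stood at 0.30 there, PDK3 at 0.28, PDK1 at 0.09 and PDK2 at 0.08. PDP1 was lowest in the same library, at -0.17, and PDP2 stood at 0.05. The 12 hypoxia-inducible genes had their highest mean in GIA library 2 as well (0.36). This list holds CA9, NDRG1, BNIP3 and LDHA among others and none of the kinases. CA9 varied most on it, from 4.17 to 32.8 FPKM. ADM, also listed, was lowest in GIA library 2 (9.04 FPKM), and each other listed gene was highest there. The list mean was lowest in DMSO library 2 (-0.35), where PDK3 (-0.19), PDK2 (-0.09), PDHB (-0.07) and DLAT (-0.03) were lowest. PDP1 (0.16), PDP2 (0.12) and PDHA1 (0.06) were highest in DMSO library 2. PDK1 (0.04) and PDK4 (0.03) did not follow: both stood above their means in that library. The order also broke between the extremes: DMSO library 1 was the next highest on the hypoxia list (0.10), and there PDK1 stood at 0.08 but PDK2, PDK3 and PDK4 at -0.03, -0.10 and -0.04.

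**Figure D4:**
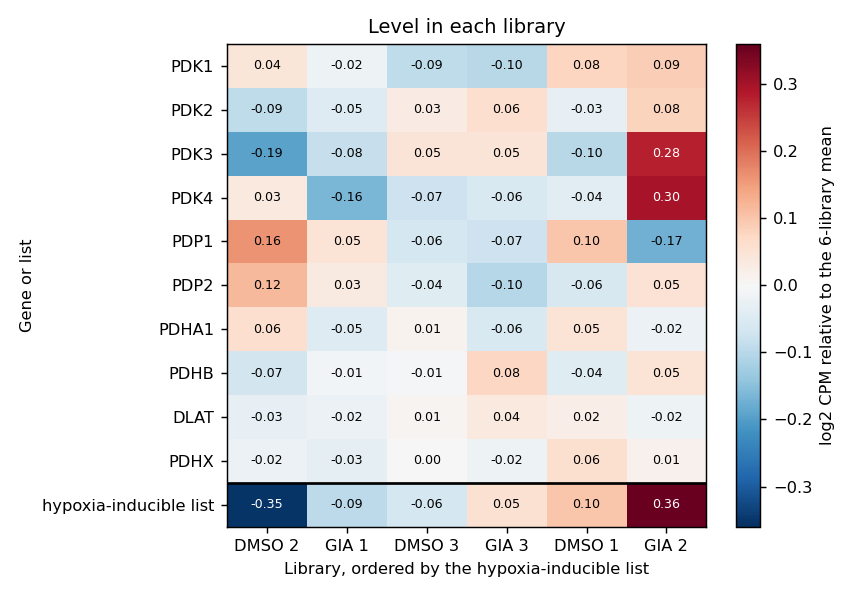
Level of each gene in each library as log2 CPM relative to its 6-library mean (numbers and colour), with libraries ordered by the mean of the 12 hypoxia-inducible genes (bottom row). GIA library 2 holds the 4 kinases at 0.08 to 0.30 and PDP1 at -0.17, and the other GIA libraries do not share this pattern.

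GIA library 2 stood apart in other ways too. The summed FPKM of the 6 fibroblast markers was 178 to 195 in the DMSO libraries and 175 to 222 in the GIA libraries. LUM (197), DCN (16.0), PDGFRB (5.38) and COL1A1 (3.17) were all highest in GIA library 2. COL1A1 was higher in each GIA library than in each DMSO library, as were 5.63% of all tested genes. THY1, at most 0.133 FPKM, went the other way from LUM and DCN and was lowest in GIA library 2 (0.0374). The summed epithelial markers had their lowest value in the same library (381 FPKM, against 434 to 440 with DMSO) and their highest in GIA library 1 (451). KRT18 (219) and KRT8 (134) were lowest in GIA library 2, while KRT19 (27.7) and EPCAM (0.294) lay within their DMSO ranges. In bulk RNA, more cells of a type and more RNA per cell cannot be told apart. The part of the fibroblast markers and of the hypoxia-inducible genes in the kinase values was not tested.

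Kinase over phosphatase transcripts followed the same library. The summed FPKM of PDK1 to PDK4 over that of PDP1 and PDP2 was 1.36, 1.26 and 1.46 in DMSO libraries 1 to 3 and 1.31, 1.71 and 1.51 in GIA libraries 1 to 3. The groups overlapped, since GIA library 1 lay below 2 of the DMSO libraries. The means were 1.36 ± 0.101 and 1.51 ± 0.201, a difference of 0.15. Leaving out GIA library 2 brought it to 0.05, DMSO library 2 to 0.10 and GIA library 1 to 0.25. Kinase over PDHA1, the transcripts of the kinases against that of their substrate, was 0.278, 0.274 and 0.286 with DMSO and 0.286, 0.336 and 0.304 with GIA. DMSO library 3 and GIA library 1 met at 0.286. On the scale of estimated counts the groups did not overlap, with DMSO library 3 at 0.462 and GIA library 1 at 0.468. PDHA1, the divisor, was itself lower in FPKM in each GIA library. How often other ratios part the groups was not computed. The difference in means was 0.03 (0.279 ± 0.00598 and 0.308 ± 0.0252), and 0.02 without GIA library 2.

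**Figure D5:**
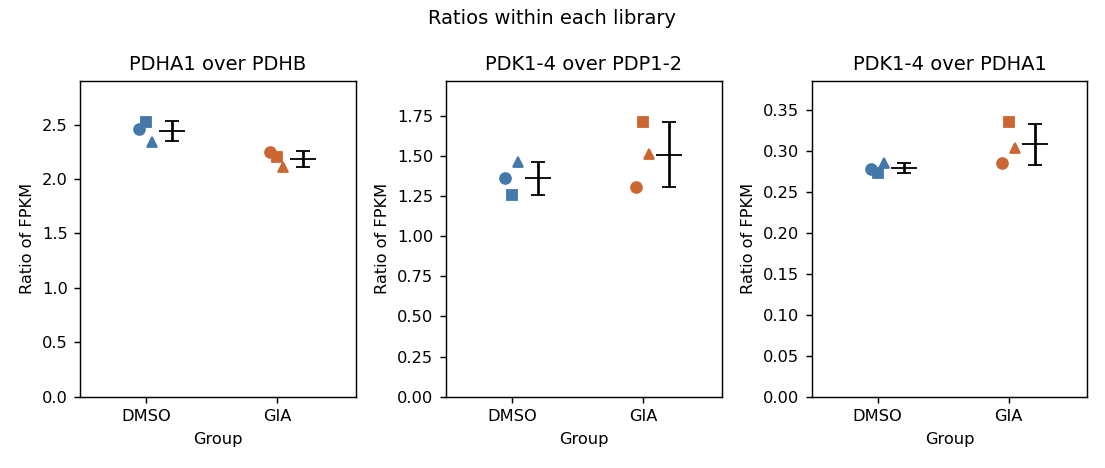
FPKM ratios within each library (points: library 1 circles, 2 squares, 3 triangles) with group mean and SD (bars, n = 3): PDHA1 over PDHB, the 4 kinases over the 2 phosphatases, and the kinases over PDHA1. PDHA1 over PDHB, chosen after the values were seen, is 2.34 to 2.52 with DMSO and 2.11 to 2.25 with GIA. Kinase over phosphatase overlaps between the groups.

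Other genes of pyruvate use, listed with the earlier results known, showed no call either. Of 18 listed genes 17 had a row and 16 were tested, with 0 higher, 0 lower and 16 not past the test, a median log2 fold change of 0.04, and 12 positive and 4 negative values. Leaving out GIA library 2 or DMSO library 2 gave a median of 0.01. DLD, the E3 subunit shared with other dehydrogenases, had the smallest p of the list: 30.7, 31.6 and 30.9 FPKM with DMSO and 29.3, 29.2 and 29.4 with GIA. DLD alone of the tested genes on this list had groups that did not overlap. GIA was lower, as for PDHA1 and for 5.60% of all tested genes. The log2 fold change of DLD was -0.09 (SE 0.03, with an interval of -0.16 to -0.01, unadjusted p = 0.0275, edgeR adjusted p = 0.875). LIAS, which makes the lipoyl group, was the other gene under 0.05 before adjustment, with 0.790 ± 0.0812 and 0.941 ± 0.0605 FPKM (n = 3 each). Among all tested genes 4.59% were under 0.05 in this way. PDPR, the regulatory subunit of the phosphatase, had a log2 fold change of 0.03 (SE 0.05), the pyruvate carrier genes MPC1 and MPC2 0.06 (SE 0.12) and 0.06 (SE 0.06), and BCKDK, the related kinase of the branched-chain dehydrogenase, 0.0067 (SE 0.06). The signs of MPC1 and BCKDK turned with single libraries left out.

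The hypoxia-inducible list had 12 of 12 genes tested, with 0 higher, 0 lower and 12 not past the test. Its median log2 fold change was 0.12, with 11 positive and 1 negative, and 0.06 without GIA library 2. VEGFA, the angiogenic factor, had the smallest p (edgeR unadjusted p = 0.0102, adjusted p = 0.875), with a log2 fold change of 0.15 (SE 0.05). Its FPKM was higher in each GIA library than in each DMSO library, as for 5.63% of all tested genes. LDHA is on this list and on that of pyruvate use. PDK1 lay at -0.02 beside these values, and its difference from the list was not tested.

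By pattern over the 6 libraries, the genes nearest to PDK1 were RPSAP15, MRPL21, PTCD3, RAB11A and ANKRD13A. Their root mean square difference from PDK1 in relative log2 CPM was 0.02 to 0.03, against a median of 0.10 over 7006 genes with a mean of at least 5 FPKM.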

How the data were processed

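The table deposited by the authors gives an estimated count and an FPKM per gene and library, per the file headers. Tools in the submitters' processing notes, with no role or order, are HISAT2 2.2.1 and StringTie 2.1.6, besides cutadapt, FastQC 0.10.1 and, by the authors, DESeq2 1.22.2. The builds named are GRCh38 and hg38. The annotation release and the making of the counts are not given in the sources used here. Among low estimated counts 4 was in excess: 6798 values equalled 4, 4183 equalled 3 and 2499 equalled 5, so 1 fragment may be worth several counts. The counts were already whole, and rounding changed nothing. FPKM levels depend on the gene length the authors used.

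The columns were matched to libraries by control or GIA and number. Genes with a mean of at least 0.5 FPKM were tested with edgeR 4.0.16 under R 4.3.3 (quasi-likelihood, TMM, two-sided, no covariate, Benjamini-Hochberg over all tested genes, threshold 0.05). Each standard error was derived from the F statistic. The test was tried on simulated counts. The members and lists were chosen with earlier results of these data known. The naming rule covers the 10 members, the pyruvate genes DLD, PDPR, MPC1, MPC2 and BCKDK, the gene of smallest p in each other list, and the 5 genes nearest to PDK1; LIAS and marker genes were named after their values were seen. Alternatives were DESeq2 1.42.0, other scalings and filters, limma 3.58.1 on log2 FPKM with pseudocounts of 0.1, 0.5 and 1, counts divided by 4, a replicate block and leaving out each library.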

Additional observations from a re-analysis of the deposited data

How the results depend on the processing

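In all settings tried 0 of the 10 members passed (5 were tested when genes under 5 FPKM were left out). The number of genes called among all tested was 0 in the fit as reported and in each other setting except the replicate block and 4 of the fits with 1 library left out, where it ranged from 1 to 3. Over the fits with 1 library left out the range was 0 to 3. Leaving out DMSO library 2, DMSO library 3, GIA library 1 and GIA library 3 gave 2, 2, 1 and 3 calls, and none of these is a member. With the replicate block 3 genes were called, 1 higher and 2 lower. Same-numbered libraries of the groups had correlations of -0.036, -0.076 and 0.228 in their deviations from the group means, over 7006 genes. Differently numbered pairs ran from -0.195 to 0.193. Whether the numbers pair the libraries cannot be decided from 3 libraries a group. Among the members, signs turned for PDK1, PDP2, DLAT and PDK4. Their log2 fold changes in the fit as reported were -0.0188, -0.0106, -0.0034 and 0.0649. The signs of PDK2, at 0.0622, and PDHX, at -0.0240, did not turn in any setting. With each library left out in turn, PDK1 ranged from -0.0698 to 0.0235, PDK4 from -0.0844 to 0.157, PDP2 from -0.0423 to 0.0473 and DLAT from -0.0235 to 0.0078. DLAT also turned, to 0.0057, when genes under 5 FPKM were left out. The cause was not tested. The scaling by library totals or by DESeq2 size factors turned no member's sign. With 3 libraries a group, small changes of PDK3 and PDK4, the most variable members, are those least bounded here.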
